A study of Homo sapiens with 2 samples.

Results

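Class C J-domain proteins, named DNAJC, are co-chaperones of HSP70 that have a J domain but lack the other shared regions of classes A and B. In the deposited table of chaperone genes, 28 of 332 rows carry a protein name that begins with DNAJC, and these 28 genes are described here. GAK (also called DNAJC26), HSCB and SEC63, usually counted in class C, stand in the table under another protein name and are used only for comparison. RNA levels were measured in 1 group of 2 libraries, numbered as replicates 1 and 2. The authors' read counts carry the heading NHS, which the heading itself does not spell out. The labels name the cells as HEK293 Flp-In T-Rex, a human embryonic kidney line with a recombination site for inserting a transgene under tetracycline control, while the extraction text names HEK293T. Lines carrying 3xFLAG-HBH fused to GFP or to HSPA1A, switched on by tetracycline, belong to the series too, and it is not stated whether such a line, or tetracycline, was used for these libraries. There was no treated group, and separate cultures for each replicate are not stated, so tests between the libraries compare these samples only, and any spread between them may be technical. The table holds chaperone genes only, so markers of the cell line's identity were not analysed here.

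A J domain binds HSP70 and stimulates its ATP hydrolysis, which makes HSP70 close on its client. Outside that domain, DNAJC proteins differ widely, and each tends to place HSP70 at a particular site: the import motor of the inner mitochondrial membrane, the lumen or membrane of the endoplasmic reticulum (ER), the spliceosome, the ribosome, or clathrin-coated and synaptic vesicles. The HSP70 they call on differs too, with HSPA8 in the cytosol and nucleus, HSPA5 in the ER and HSPA9 in mitochondria. The 28 genes were sorted by these known sites into ER (7 genes), mitochondrion (6), nucleus and splicing (3), ribosome and translation (3), endocytosis and synaptic vesicles (5), and cytosol and other (4).

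The libraries held 6828264 reads (replicate 1) and 4445676 reads (replicate 2), the totals behind the authors' RPKM, a unit that divides a gene's reads by its length in kilobases and by the size of the library. The DNAJC genes took 7193 and 4551 of these reads. That was 0.105% of replicate 1 (95% Wilson interval 0.103 to 0.108) and 0.102% of replicate 2 (0.0994 to 0.105). The median DNAJC gene had 161.5 and 102.5 reads, and 2 of the 28, DNAJC5B and DNAJC5G, had fewer than 10 in each library. Every one of the 28 had at least 1 read in replicate 1. Intervals here cover counting error only. In bulk RNA, fewer cells that express a gene and less RNA per cell cannot be told apart.

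The authors divided by the whole genomic span, introns included. Levels of the 28 genes are therefore given per kilobase of span and, from the same reads, per kilobase of exon. Exons were all those annotated in GENCODE 29. Levels of most other genes named below are given per kilobase of exon only. The DNAJC genes have long introns, with a median span of 41212 bases, 7.58 times their exonic length (6.37 times over all 332 genes). Whether intronic reads were counted is not stated, and any such reads are included in both units. Per kilobase of span, 10 of 28 reached a mean of 1 RPKM, against 46.4% of all genes in the table. Their median was 0.424 RPKM, against 0.784 over all genes. Per kilobase of exon, 22 of 28 reached 1 RPKM, against 74.4% of all genes, with a median of 3.68 RPKM against 5.17. Over the longest coding transcript of each gene, 24 of 28 did, against 78.2% of the genes that have one. These shares describe the libraries, and the list was not tested against the table. None of the 28 reached 10 RPKM per kilobase of span, while 8 did per kilobase of exon.

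**Figure D1:**
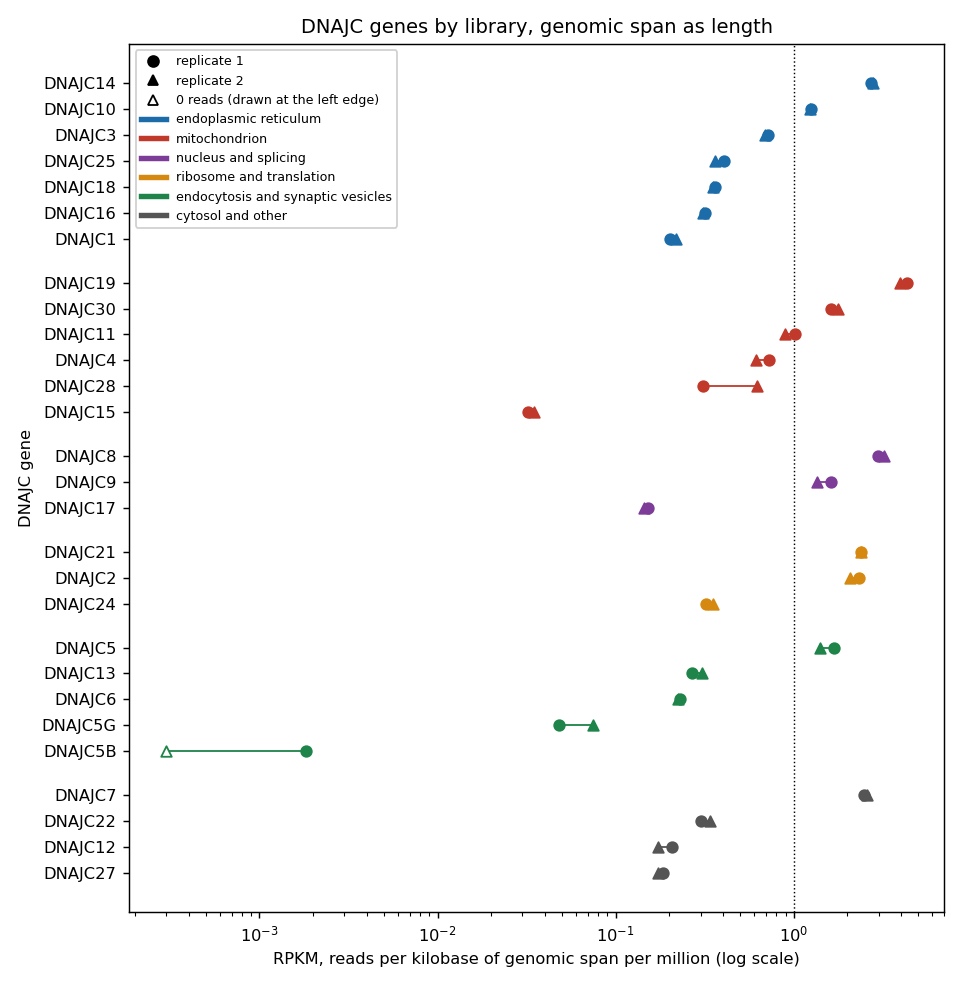
RPKM per kilobase of genomic span in replicate 1 (circle) and replicate 2 (triangle) for each of the 28 DNAJC genes, on a log axis, coloured by group, with a dotted line at 1 RPKM. DNAJC19 is the highest at 4.16 RPKM and DNAJC5B the lowest, with 0 reads in replicate 2 drawn as an open triangle at the left edge.

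Nuclear members held the highest levels per kilobase of exon. DNAJC8, a component of spliceosomes (ENSG00000126698, GRCh38 chr1:28199456-28233029, minus strand), had 678 reads in replicate 1 and 479 in replicate 2. Its exon-based level was 34.4 and 37.3 RPKM, a mean of 35.8 ± 2.07 (SD, n = 2), the highest of the 28. Per kilobase of span it stood at 3.08 ± 0.178 RPKM, after DNAJC19. DNAJC9, which handles histones H3 and H4 (ENSG00000213551, chr10:73183362-73247255, minus strand), came next with 704 and 382 reads. Its exon-based level was 26.1 and 21.7 RPKM, a mean of 23.9 ± 3.07. DNAJC8 exceeded DNAJC9 in both libraries, and their libraries did not overlap. DNAJC17, an RNA-binding J protein of the nucleus, was far lower, with 44 and 27 reads, at 1.11 ± 0.0465 RPKM per kilobase of exon and 0.148 ± 0.00619 per kilobase of span. In its longest coding transcript 30.3% of windows of 50 bases occur in reverse in other transcripts, chiefly GCHFR, and 6.78% of those of DNAJC8 occur in sense in pseudogenes and other transcripts, so both levels are uncertain over those bases.

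The span given for DNAJC9 was 63893 bases, 4.26 times the 14984 bases that RefSeq gives this gene. Divided by the RefSeq span, its reads gave 6.31 ± 0.810 RPKM in place of 1.48 ± 0.190, above the 4.11 ± 0.264 of DNAJC19 on that scale. For 22 of the 28 genes both spans were within 10% of each other. Part of the DNAJC9 transcript is also present in other annotated RNA. Of the windows of 50 bases in its longest coding transcript, 26.8% occur in reverse in other genes' transcripts, chiefly FAM149B1 on the opposite strand, and 14.1% occur in the processed pseudogene AL035456.1, so its level is uncertain where reads could be assigned to either. The counting was not stated to use strand.

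Of the ribosomal members, DNAJC2, the zuotin homologue that works beside the ribosome exit with the HSP70 HSPA14, had 519 and 299 reads. It stood at 2.20 ± 0.190 RPKM per kilobase of span and 10.9 ± 0.943 per kilobase of exon. DNAJC21, needed for maturation of the large ribosomal subunit, had 479 and 313 reads and stood at 2.39 ± 0.00615 and 7.35 ± 0.0189 RPKM. DNAJC2 was the lower of this pair per kilobase of span and the higher per kilobase of exon, where the libraries did not overlap. HSPA14 stood at 1.13 ± 0.142 RPKM per kilobase of span, below DNAJC2, and at 14.3 ± 1.80 per kilobase of exon, above it. The order of HSPA14 and DNAJC2 thus turned with the unit. DNAJC24, which takes part in diphthamide synthesis on elongation factor 2, had 139 and 98 reads, at 0.337 ± 0.0189 and 2.79 ± 0.157 RPKM.

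The ER group took the largest share of DNAJC reads, 28.7% in replicate 1 (95% Wilson interval 27.6 to 29.7) and 29.3% in replicate 2, with 7 of the 28 genes. All 7 reached 1 RPKM per kilobase of exon, and 2 did per kilobase of span. DNAJC1, or ERdj1, a membrane protein that binds ribosomes (ENSG00000136770, chr10:21756548-22003769, minus strand), had 341 and 239 reads. It was the lowest of the group per kilobase of span, at 0.202 and 0.217 RPKM, and the highest per kilobase of exon, at 20.0 and 21.5 RPKM. Its span of 247221 bases was 98.8 times its exonic length, the largest ratio of the 28. Its exon-based level and rank therefore depend on whether intronic reads were counted, which is not stated. DNAJC3, a lumenal protein that inhibits the stress kinase PERK, had 574 and 361 reads, at 0.701 ± 0.0172 RPKM per kilobase of span and 14.8 ± 0.362 per kilobase of exon. DNAJC10, or ERdj5, a disulfide reductase that prepares misfolded proteins for degradation, had 666 and 429 reads, at 1.24 ± 0.00938 and 4.44 ± 0.0336 RPKM. The second value rests on 21835 annotated exonic bases, the most of the 28. By reads DNAJC10 ranked 3 of 28, and per kilobase of exon 13.

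DNAJC14, which assists export of membrane receptors from the ER, had 184 and 122 reads and led the group per kilobase of span at 2.76 ± 0.0355 RPKM. Per kilobase of exon it stood at 6.49 ± 0.0836 RPKM. Its count is uncertain, since 27.4% of the windows of 50 bases in its transcript are shared in sense with the annotated gene AC023055.1 and 27.0% occur in reverse in other transcripts, chiefly ORMDL2. The other ER members were lower. DNAJC16, or ERdj8, had 143 and 90 reads, at 0.314 ± 0.00753 RPKM per kilobase of span and, per kilobase of exon, 2.45 and 2.36 RPKM. DNAJC18 had 89 and 56 reads, at 0.357 ± 0.00862 and 1.97 ± 0.0476 RPKM. DNAJC25 had 64 and 37 reads, at 0.384 ± 0.0323 and 3.42 ± 0.287 RPKM, and shares 14.0% of its windows with the read-through gene DNAJC25-GNG10. HSPA5, the HSP70 of this compartment, stood at 51.0 ± 15.0 RPKM per kilobase of exon, and its exchange factors HYOU1 and SIL1 at 14.3 ± 1.20 and 4.77 ± 0.325. DNAJC1 and DNAJC3 were thus below HSPA5 and above SIL1 in each library.

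Mitochondrial members spanned a wide range. DNAJC19, or TIM14, which activates HSPA9 at the import channel of the inner membrane (ENSG00000205981, chr3:180983709-180989774, minus strand), had 180 and 107 reads. It was the highest of the 28 per kilobase of span, at 4.35 and 3.97 RPKM, and ranked 10 of 28, at 7.03 ± 0.452 RPKM, per kilobase of exon. Its span is 6065 bases, against the median of 41212. DNAJC15, its paralogue at the same channel (ENSG00000120675, chr13:43023203-43114213, plus strand), had 20 and 14 reads, at 0.0334 ± 0.00171 RPKM per kilobase of span and 0.378 ± 0.0194 per kilobase of exon. The libraries of this pair were far apart in both units. DNAJC19 exceeded DNAJC15 125 ± 14.4 times (SD, n = 2) per kilobase of span and 18.7 ± 2.15 times per kilobase of exon. The size of the gap rests on the DNAJC15 length: over the transcripts that the authors' table names beside these genes, DNAJC15 (924 bases) stood at 3.29 ± 0.168 RPKM, DNAJC19 (1239 bases) at 20.4 ± 1.31 RPKM, and the ratio was 6.21 ± 0.716.

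DNAJC15 is also called MCJ, methylation-controlled J protein, because methylation of CpG dinucleotides at its start has been found to silence it in cancer cells. Methylation was not measured here. Which CpG take part in that silencing was not examined. The 250 bases upstream of the RefSeq starts of both paralogues are shown with every CpG in capitals (RefSeq, GRCh38.p14, DNAJC15 at chr13:43023336-43023585, plus strand, and DNAJC19 at chr3:180989775-180990024, minus strand).
DNAJC15: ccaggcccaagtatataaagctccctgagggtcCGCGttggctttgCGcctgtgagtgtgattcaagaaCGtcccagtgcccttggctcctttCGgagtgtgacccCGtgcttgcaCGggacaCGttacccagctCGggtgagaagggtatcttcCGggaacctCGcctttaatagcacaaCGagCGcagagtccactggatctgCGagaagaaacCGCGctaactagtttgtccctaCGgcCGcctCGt
DNAJC19: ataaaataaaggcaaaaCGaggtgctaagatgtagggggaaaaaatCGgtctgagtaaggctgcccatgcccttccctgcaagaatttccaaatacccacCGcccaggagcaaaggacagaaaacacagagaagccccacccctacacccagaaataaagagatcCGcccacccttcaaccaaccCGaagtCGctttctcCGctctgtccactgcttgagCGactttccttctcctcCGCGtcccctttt
The stretch of DNAJC15 holds 19 CpG and that of DNAJC19 holds 10. In the full RefSeq windows of 300 bases, which add 50 bases after the start, the counts were 24 and 15, and the median over 35116 promoter windows was 14. The RefSeq start used for DNAJC15 lies 383 bases downstream of the start in the authors' table, so the stretch shown falls inside the authors' span. Of the 24 DNAJC genes found in that promoter set, 20 had more CpG than that median, with a median of 24.5. The RefSeq start nearest to the authors' start was used, without a distance limit. It lay 16530 bases away for DNAJC6, 4966 for DNAJC18 and 3937 for DNAJC7, and DNAJC18 and DNAJC7 are among the 20. Whether those windows serve the measured RNA is not known.

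DNAJC19 has 9 annotated processed pseudogenes, copies of its RNA without introns. The closest is DNAJC19P9 on chromosome 14 (GRCh38 chr14:45290036-45290386, plus strand), which matches 344 of the 348 coding bases. The stretch of 120 coding bases with the most differences is shown because it marks how little sequence tells the copies apart (bases 144 to 263 of the coding sequence, counted from 1 at its first base). Capitals mark bases of the copy that differ.
DNAJC19: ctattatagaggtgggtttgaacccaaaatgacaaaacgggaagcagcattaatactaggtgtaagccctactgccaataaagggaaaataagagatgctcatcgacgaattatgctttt
DNAJC19P9: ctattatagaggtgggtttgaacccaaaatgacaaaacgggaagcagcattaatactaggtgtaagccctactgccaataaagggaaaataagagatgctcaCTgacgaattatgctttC
The stretch differs at 3 bases. Of the windows of 50 bases in the longest coding transcript of DNAJC19, 13.2% occur in DNAJC19P9, and within the coding sequence 60.9% do. The other 8 copies shared none of the coding windows. The treatment of reads that match both genes was not stated, so the DNAJC19 level is uncertain over those bases.

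The other mitochondrial members were DNAJC11, DNAJC30, DNAJC4 and DNAJC28. DNAJC11, which associates with the complex that shapes cristae, had 473 and 270 reads, at 0.959 ± 0.0891 RPKM per kilobase of span and 12.8 ± 1.19 per kilobase of exon, the highest of this group in the second unit. In its longest coding transcript, 42.0% of windows occur in reverse in THAP3, its neighbour on the opposite strand. DNAJC30, a mitochondrial protein linked to turnover of respiratory complex I, had 28 and 20 reads. With a span of 2535 bases and 2485 bases of exon, its level was 1.70 ± 0.111 RPKM by span and 1.73 ± 0.113 by exon, so its rank among the 28 went from seventh to twentieth. DNAJC4 had 20 and 11 reads, at 0.674 ± 0.0802 RPKM per kilobase of span and 0.962 ± 0.115 per kilobase of exon. DNAJC28 had 13 and 17 reads, at 0.463 ± 0.219 and 1.15 ± 0.547 RPKM. The order of their means turned with the unit, and their libraries overlapped in both. DNAJC4 shares 20.0% of its windows with its neighbour NUDT22, and 13.2% of those of DNAJC30 occur in reverse in other transcripts, chiefly BUD23, so their levels are uncertain there. HSPA9 stood at 60.4 ± 1.76 RPKM per kilobase of exon, and its exchange factors GRPEL1 and GRPEL2 at 10.3 ± 0.355 and 13.7 ± 1.69.

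**Figure D2:**
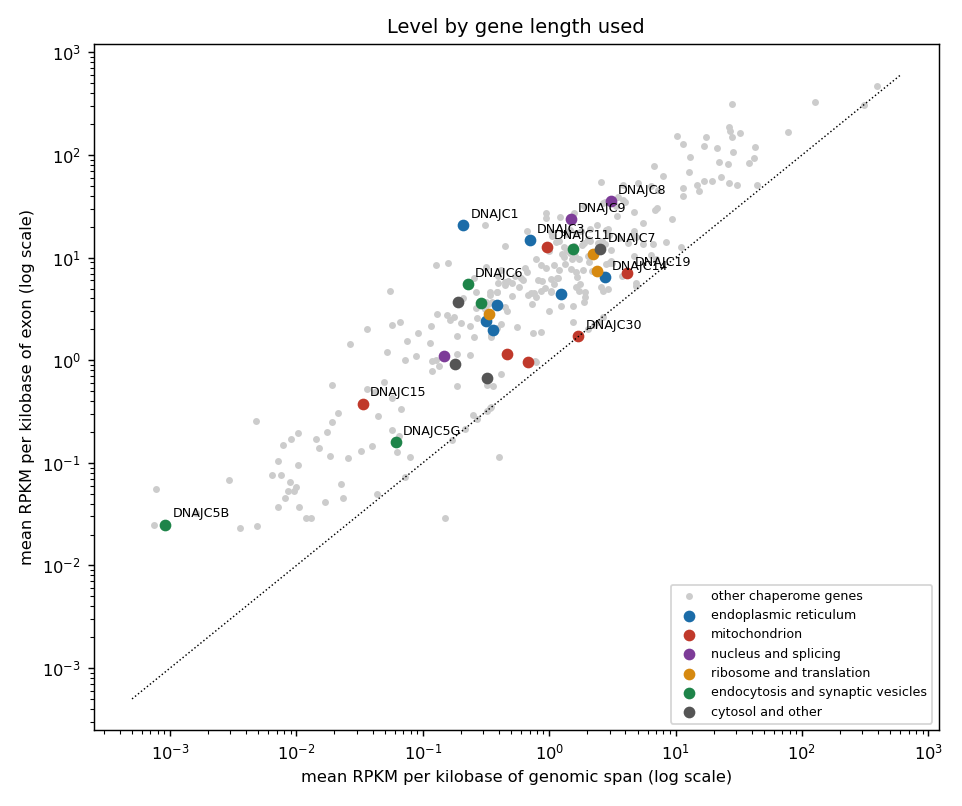
Mean RPKM of both libraries per kilobase of genomic span (x axis) and per kilobase of exon (y axis), both on log scales, for the 28 DNAJC genes (coloured by group) and the other genes of the table (grey), with a dotted line of equal values. DNAJC30 lies near the line, while DNAJC1 lies farthest above it, at 0.210 RPKM by span and 20.7 RPKM by exon.

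In the vesicle group, DNAJC5, the cysteine-string protein that guards synaptic vesicle fusion proteins, was the most abundant. It had 473 and 257 reads, at 1.55 ± 0.198 RPKM per kilobase of span and 12.0 ± 1.53 per kilobase of exon. Its paralogues were at the limit of detection. DNAJC5B had a lone read, 1 in replicate 1 against 0 in replicate 2, where a count of 0 allows up to 3 reads, or 0.00847 RPKM per kilobase of span. DNAJC5G had 2 reads in each library, at 0.0612 ± 0.0183 RPKM per kilobase of span and 0.158 ± 0.0472 per kilobase of exon. The mean of DNAJC5B was 0.000919 and 0.0249 RPKM in these units, from its lone read. From summed reads, DNAJC5 exceeded DNAJC5B 1422 times per kilobase of span (95% exact interval 254 to 56249.9) and 406 times per kilobase of exon (72.6 to 16039). The corresponding values against DNAJC5G were 27.1 (10.5 to 99.6) and 81.1 (31.5 to 299). The longest coding transcripts of all 3 share no window of 50 bases with any other gene, so they do not share reads of that length with each other.

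Auxilins strip clathrin from vesicles with HSPA8. DNAJC6, the auxilin known from neurons, had 263 and 168 reads, at 0.228 ± 0.00307 RPKM per kilobase of span and 5.49 ± 0.0739 per kilobase of exon. GAK, known as the widely expressed auxilin, had 241 and 116 reads, at 0.369 ± 0.0783 and 2.03 ± 0.429 RPKM. The order of the pair turned with the length used. GAK was 1.62 ± 0.322 times DNAJC6 per kilobase of span, 0.369 ± 0.0733 times per kilobase of exon and 1.07 ± 0.213 times over the longest coding transcripts, so it was not resolved. DNAJC13, or RME-8, which sorts cargo at endosomes, had 222 and 166 reads. It stood at 0.287 ± 0.0281 RPKM per kilobase of span and 3.64 ± 0.355 per kilobase of exon.

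Of the remaining members, DNAJC7, whose tetratricopeptide repeats bind HSP70 and HSP90, had the most reads of the 28, 757 and 517. It stood at 2.53 ± 0.0854 RPKM per kilobase of span and 12.1 ± 0.410 per kilobase of exon. Over its longest coding transcript, of 2022 bases, it stood at 56.2 ± 1.90 RPKM, next to DNAJC8 at 58.9 ± 3.40. The opposite-strand genes CNP and NKIRAS2 overlap its exons, and 27.7% of its windows occur in reverse in other transcripts. DNAJC12, which helps fold the aromatic amino acid hydroxylases, had 59 and 32 reads, at 0.191 ± 0.0246 RPKM per kilobase of span and 3.73 ± 0.481 per kilobase of exon. DNAJC27, a small GTPase with a J domain, had 36 and 22 reads, at 0.180 ± 0.00804 RPKM per kilobase of span and 0.909 ± 0.0407 per kilobase of exon. DNAJC22, whose Drosophila homologue acts in endocytosis, had 22 and 16 reads, at 0.320 ± 0.0250 and 0.668 ± 0.0522 RPKM. HSPA8, the cytosolic HSP70, stood at 466 ± 8.23 RPKM per kilobase of exon.

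The promoter of DNAJC12 had the fewest CpG. It is shown beside those of DNAJC15 and DNAJC19 above (RefSeq, GRCh38.p14 chr10:67838189-67838438, minus strand, the 250 bases upstream of the start, CpG in capitals).
DNAJC12: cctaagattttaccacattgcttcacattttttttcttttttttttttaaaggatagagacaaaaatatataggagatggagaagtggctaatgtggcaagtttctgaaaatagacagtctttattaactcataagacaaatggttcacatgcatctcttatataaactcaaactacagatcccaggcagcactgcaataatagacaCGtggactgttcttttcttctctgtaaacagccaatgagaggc
This stretch holds 1 CpG, as does its full window, and of all promoter windows 11.0% held 1 or 0. The letters TATAAA, read on both strands, occur in the windows of 3 of the 24 genes, DNAJC12, DNAJC15 and DNAJC2, and in 11.5% of all windows. A match is a description of letters and was not tied to a level.

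**Figure D3:**
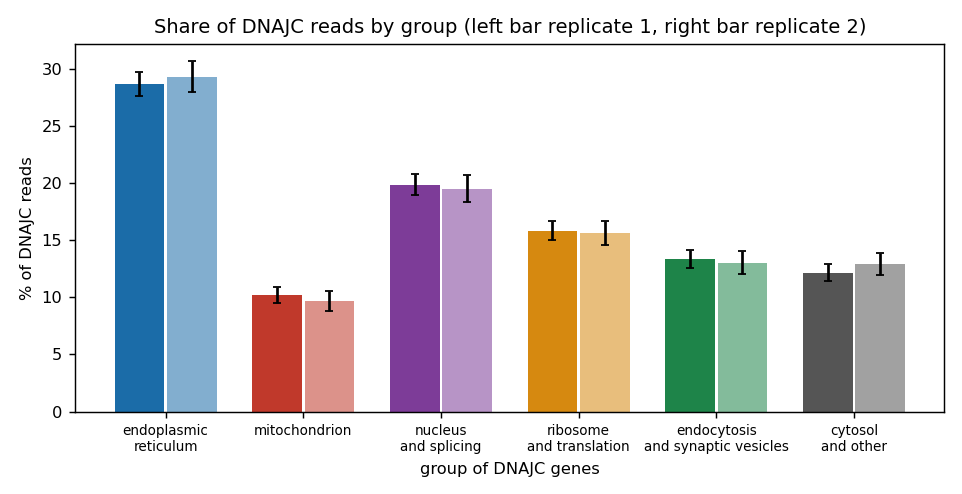
Share of all DNAJC reads held by each group, in replicate 1 (left bar) and replicate 2 (right bar), with 95% Wilson intervals. The ER group is the largest at 28.7% and 29.3% and the mitochondrial group the smallest at 10.2% and 9.65%. Reads are not divided by length, and the groups hold from 3 to 7 genes.

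Neighbours in the order were called apart when their libraries did not overlap and the exact 95% Poisson intervals of their summed reads per kilobase did not overlap either. Per kilobase of span this held for 6 of the 27 neighbouring pairs. They were DNAJC19 over DNAJC8, DNAJC9 over DNAJC10, DNAJC10 over DNAJC11, DNAJC11 over DNAJC3, DNAJC13 over DNAJC6, and DNAJC15 over DNAJC5B. Per kilobase of exon it held for 5, DNAJC8 over DNAJC9, DNAJC9 over DNAJC1, DNAJC1 over DNAJC3, DNAJC2 over DNAJC21, and DNAJC6 over DNAJC10. The other neighbours were not resolved. Across the 28 genes, Spearman's rho between both units was 0.654, against 0.888 over all 332 genes, both from the same reads. Genes are not independent replicates, and an exact test on 2 libraries cannot go below 0.5.

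No DNAJC gene was called different between the libraries. In an exact two-sided binomial test over all 332 genes with Benjamini-Hochberg adjustment, 0 of the 28 passed an adjusted p of 0.05, against 4.52% of the table. This test covers counting error only, taking reads as independent, and uses no spread between samples. At an unadjusted p under 0.05 there were 2 of 28, DNAJC9 and DNAJC5, against 16.6% of the table. With edgeR and a spread pooled over the table, 0 of 28 passed after adjustment (0.602% of the table did) and 0 of 28 before it (2.71% of the table). That spread was estimated from the same 2 libraries taken as 1 group. It therefore contains the differences being tested and gives no independent check of a call. DNAJC9 was lower in replicate 2 (log2 ratio -0.26, adjusted p = 0.0833, exact binomial test), as was DNAJC5 (log2 ratio -0.26, adjusted p = 0.198, exact binomial test). The largest ratio among genes with at least 10 reads in each library was that of DNAJC28, at 0.99 on the log2 scale from 13 and 17 reads (adjusted p = 0.337, exact binomial test). In all, 12 of the 28 had a ratio above 0, against 47.6% of the table. The table's share counts 12 genes outside the DNAJC list that had no reads in either library. Their log2 ratio of 0.62 came only from the reads added before scaling to libraries of unequal size. The shares are therefore not directly comparable.

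HSPA5, the HSP70 of the ER, had 1076 reads in replicate 1 and 1070 in replicate 2, from the smaller library (log2 ratio 0.61, higher in replicate 2). Of the 11 partner genes examined, HSP70s and their exchange factors, HSPA5 and HSPA1B were called by the binomial test, HSPA1B with a log2 ratio of -0.10. HSPA1B had 5540 and 3356 reads, while HSPA1A had 1 and 3. Sequence shared by HSPA1A and HSPA1B was not examined, so the HSPA1B count may hold reads of both. With edgeR's pooled spread, drawn from these same libraries, HSPA5 passed (adjusted p = 0.0413) and HSPA1B did not (adjusted p = 1). The ER members of the DNAJC list had log2 ratios from -0.16 to 0.11, and DNAJC3 and DNAJC10 stood at -0.05 and -0.01. SEC63, the class C J protein of the ER translocation channel that stands in the table under its own name, had 319 and 273 reads and was higher in replicate 2 (log2 ratio 0.39, adjusted p = 0.0261, exact binomial test). With edgeR's pooled spread SEC63 did not pass (adjusted p = 1). Whether SEC63 differed more than the other ER members was not tested.

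**Figure D4:**
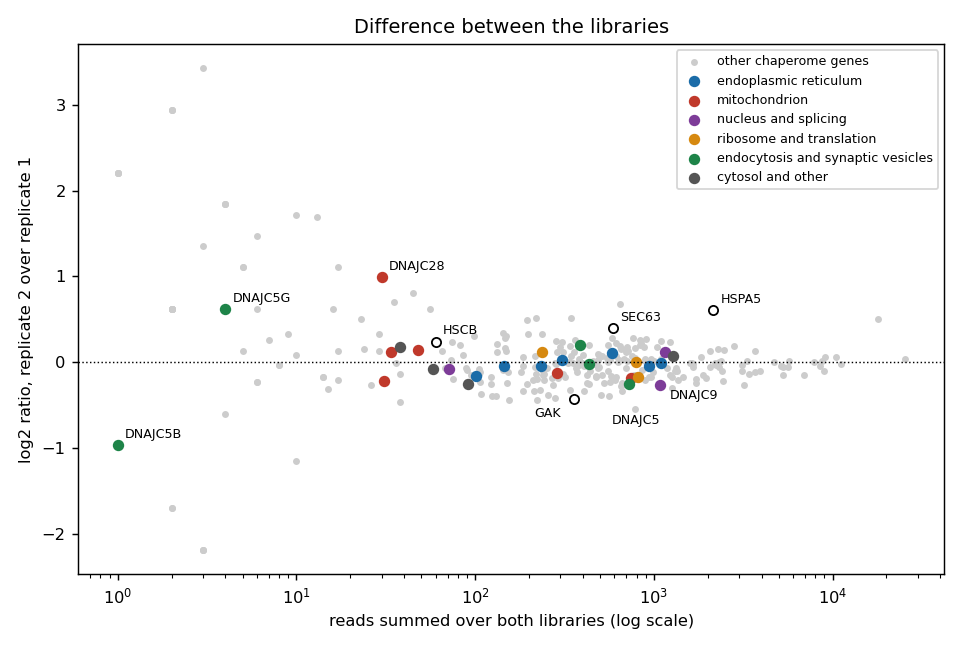
Log2 ratio of library-scaled reads, replicate 2 over replicate 1 (y axis), against reads summed over both libraries (x axis, log scale), for the 28 DNAJC genes (coloured by group), the other genes of the table (grey) and HSPA5, SEC63, GAK and HSCB (open circles). DNAJC9 and DNAJC5 lie at -0.26, while SEC63 lies at 0.39 and HSPA5 at 0.61.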

How the data were processed

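Stranded total RNA libraries were made from Trizol extracts, per the labels' protocols. Per the submitters' processing notes, STAR 2.6.0b, Trim Galore 0.6.4 and Bowtie2 2.4.2 were used with GRCh38. No source used here names the counting program, its annotation, its use of strand, or whether intronic reads were counted. The authors deposited whole-number read counts per replicate and a mean RPKM. That RPKM was recovered from the counts, the genomic span and 2 library totals, solved by least squares (largest relative misfit 8.50e-14). RPKM per replicate, per exonic length and per longest coding transcript (GENCODE 29) was then computed, with all 28 symbols matching.

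Members, groups and lists were chosen with earlier results of these data known. All 28 genes are accounted for. The rule for full values was the highest and lowest 2 of each group, 3 paralogue pairs, any member called between libraries, and partner genes; other values were chosen after they were seen. With 1 group, no test between groups was possible. Libraries were compared by exact binomial tests (scipy 1.17.1), 0.5 reads being added in log2 ratios, and by edgeR 4.0.16 with the common dispersion, whose coefficient of variation was 7.15%. The binomial test was tried on simulated counts with counting error only, which cannot show how it behaves with further spread between libraries. The edgeR test was not tried on simulated data. DNAJC5B had 0 reads in replicate 2, so its ratio used summed reads with an exact binomial interval. Lengths by longest coding or named transcript, the RefSeq span and the exonic order were added after seeing the data.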

Additional observations from a re-analysis of the deposited data

How the results depend on the processing

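Of 34 recalculated values, 19 stayed within the replicate spread, the counting interval or 1.5 times, 14 moved and 1 reversed. With exonic length 22 DNAJC genes instead of 10 reached 1 RPKM, and 24 did over the longest coding transcript; a threshold of 5 RPKM left 0, and with either replicate left out there were 10 to 11. The median of 0.424 RPKM became 3.68 with exonic length, 5.63 over the longest coding transcript and 0.569 with at least 10 reads; with either replicate left out it was 0.385 to 0.489. The ratio of DNAJC19 to DNAJC15 was 18.7 with exonic length, 44.9 over the longest coding transcripts and 6.21 over the transcripts named in the table, and 115 to 135 with either replicate left out. GAK to DNAJC6 reversed to 0.369 with exonic length and was 1.07 over the longest coding transcripts. DNAJC5 to DNAJC5B was 194 over the longest coding transcripts, and without replicate 1 no ratio could be had. A further log2 ratio was taken from span RPKM with 1 RPKM added, in place of 0.5 reads. Its SD over the DNAJC genes was 0.09, against 0.13 over all genes of the table. The SD rose to 0.20 (0.37 over all genes) with 0.1 RPKM added, and to 0.15 (0.18) with exonic length. Adding 1 RPKM, which is above the median of 0.424, shrinks the ratios of low genes. As a share of the table's reads the DNAJC genes held 3.67%, a different denominator. No setting called a DNAJC gene different between the libraries. Depth limits DNAJC5B and DNAJC5G. No paired analysis was possible because the libraries form a single group.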

Other observations

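HSCB, a class C protein not counted among the 28 that delivers iron-sulfur clusters in mitochondria with HSPA9, had 34 and 26 reads, at 3.70 ± 0.420 RPKM per kilobase of exon. In its longest coding transcript, 24.6% of windows of 50 bases occur in reverse in other transcripts, chiefly CHEK2 on the opposite strand. Per kilobase of exon, the median was 12.9 RPKM over the 4 class A genes and 2.13 RPKM over the 13 class B genes. Over the 28 DNAJC genes it was 3.68 RPKM. Per kilobase of span the medians were 3.36, 0.553 and 0.424 RPKM, so the order of class B and DNAJC turned with the unit. In each library, fewer than 10 reads were held by 1 of the class A, 4 of the class B and 2 of the DNAJC genes. The lists were not tested against each other.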
